A study of Mus musculus with 12 samples.

Results

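The Hox genes of the 4 mouse clusters were examined in fibroblasts with and without the Atm kinase, before and after irradiation. The members were 38 listed Hox genes, taken by cluster and paralogue number rather than by a threshold on their values. They comprised 10 Hoxa, 10 Hoxb, 9 Hoxc and 9 Hoxd genes. A probe was found through its RefSeq accession for 35 of them, among 17305 genes with a probe, with 45 Hox probes in all, and 31 members entered the tests.

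Hox genes encode homeodomain transcription factors that give cells along the body axis and the limbs their regional identity. Within each cluster the genes lie in the order in which they are used, so that low-numbered genes are active in anterior and proximal regions and high-numbered genes in posterior and distal regions such as the hand and foot. Fibroblasts keep much of the Hox pattern of the place they were taken from when they are grown in culture.

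The cells were mouse embryonic fibroblasts. ATM-WT cells carry an intact Atm gene, which encodes a kinase that signals DNA double-strand breaks, and ATM-KO cells lack it. The groups were nonirradiated ATM-WT (NonIR-WT), irradiated ATM-WT (IR-WT), nonirradiated ATM-KO (NonIR-KO) and irradiated ATM-KO (IR-KO), with 3 samples each. Irradiated cells received 4.32 Gy, and RNA was taken after 72 h. The knockout allele, the dose rate, the age of the embryos, the part of the embryo used and the number of embryos or cultures behind each group are not given in the sources used here. A p-value therefore reflects no more than how far these samples scatter, and some of that scatter may be technical. The 12 samples were read on 12 single-dye Agilent arrays placed on 3 slides.

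An array's 75th percentile of signal lay between 379 and 757, and its share of probes well above background between 55.3% and 64.5%. All 12 fibroblast markers, among them Col1a1 and Vim, were well above background on all 12 arrays. Atm itself was well above background on 5 of 6 ATM-WT arrays and 1 of 6 ATM-KO arrays. Dim arrays were taken at the lowest signal well above background on them, or at their own signal where that was higher. On this basis Atm was 1.96-fold lower in NonIR-KO than in NonIR-WT (limma adjusted p = 0.476). It was 3.05-fold lower in IR-KO than in IR-WT (adjusted p = 0.225). These folds are not strict minima, since a probe not well above background can read above that lowest signal. The 2 samples numbered 1 of each genotype stood apart from numbers 2 and 3 in many Hox genes, as described below, and results are given with and without them. They also stood apart over all probes. In the authors' probe-centred log2 values their medians were -0.308 (NonIR-WT), -0.427 (IR-WT), 0.27 (NonIR-KO) and -0.299 (IR-KO). The other arrays lay between -0.058 and 0.187. Their 75th percentiles were 608, 757, 430 and 708 in the same order. The part of this in the Hox values was not tested. Same-numbered nonirradiated and irradiated samples of a genotype deviated together from their group means and are treated as pairs. Numbers 2 and 3 also deviated together with each other across treatments, with correlations of 0.335 and 0.284 in ATM-KO and 0.302 and 0.0745 in ATM-WT. With 3 samples per group, numbers 2 and 3 tend to deviate together whenever number 1 lies far from the group mean. Slide 1 held ATM-WT numbers 1 and 2, slide 2 held ATM-WT number 3 and ATM-KO number 1, and slide 3 held ATM-KO numbers 2 and 3. Positions 1 and 3 of each slide carried nonirradiated RNA and positions 2 and 4 irradiated RNA, which means that irradiation and array position cannot be told apart.

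In the Hoxd cluster the values at the high-numbered end and those of the rest differed in opposite directions between the genotypes. The promoters of 2 members with higher ATM-KO means, Hoxd13 and Hoxd10, and of 2 with lower ATM-KO means, Hoxd8 and Hoxd3, are therefore shown. Each is the 250 bases before the gene's start, 5′ to 3′, from RefSeq on build GRCm38.p6, all on the + strand: chr2:74667975-74668224 for Hoxd13, chr2:74691641-74691890 for Hoxd10, chr2:74704365-74704614 for Hoxd8 and chr2:74711743-74711992 for Hoxd3. Capitals mark matches on either strand to any of 5 motifs: TATAAA (the TATA box), GGGCGG (the GC box), AGGTCA (the core site of nuclear receptors such as the retinoic acid receptors), TTTATG (bound by Cdx factors) and TGATTNAT (bound by Hox proteins together with Pbx).
Hoxd13: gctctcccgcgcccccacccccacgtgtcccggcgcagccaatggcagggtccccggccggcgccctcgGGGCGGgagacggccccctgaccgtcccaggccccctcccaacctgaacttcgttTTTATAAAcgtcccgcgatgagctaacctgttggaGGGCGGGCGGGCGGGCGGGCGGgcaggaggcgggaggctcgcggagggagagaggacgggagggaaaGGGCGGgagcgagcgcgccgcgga
Hoxd10: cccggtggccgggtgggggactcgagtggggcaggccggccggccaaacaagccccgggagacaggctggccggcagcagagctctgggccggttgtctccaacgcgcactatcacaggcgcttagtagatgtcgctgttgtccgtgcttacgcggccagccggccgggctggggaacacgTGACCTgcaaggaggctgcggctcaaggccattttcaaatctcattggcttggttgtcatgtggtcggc
Hoxd8: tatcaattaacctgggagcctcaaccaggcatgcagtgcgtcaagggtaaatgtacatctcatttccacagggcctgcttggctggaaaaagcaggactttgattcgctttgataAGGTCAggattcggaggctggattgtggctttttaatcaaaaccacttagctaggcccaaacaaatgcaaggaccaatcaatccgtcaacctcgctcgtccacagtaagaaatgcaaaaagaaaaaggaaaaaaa
Hoxd3: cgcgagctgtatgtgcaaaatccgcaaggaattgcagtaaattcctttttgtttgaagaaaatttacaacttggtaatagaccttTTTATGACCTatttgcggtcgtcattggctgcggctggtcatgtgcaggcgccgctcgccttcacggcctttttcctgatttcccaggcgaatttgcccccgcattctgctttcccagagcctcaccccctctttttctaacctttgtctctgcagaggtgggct

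Promoter sequences were found for 22 of the 38 members, and for genes with several starts the first listed was used. In the promoter of Hoxd13 there were 7 matches to GGGCGG and 2 to TATAAA, some of them overlapping, and 74.4% of its bases were G or C. Those of Hoxd10, Hoxd8 and Hoxd3 held 1 match each to AGGTCA, and that of Hoxd3 also held 1 to TTTATG, which overlaps its AGGTCA match on the other strand. AGGTCA was found in 6 of the 22 Hox promoters (27.3%), those of Hoxb4, Hoxc4, Hoxd3, Hoxd4, Hoxd8 and Hoxd10, against 13.8% of all 27025 promoters of the same length. TTTATG was found in 5 (22.7%, against 11.1%), GGGCGG in 9 (40.9%, against 32.9%), TATAAA in 3 (13.6%, against 12.97%) and TGATTNAT in 1, that of Hoxa2 (4.55%, against 2.99%). A match describes the letters only, and promoters on both sides of the contrast held AGGTCA.

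Values below are log2 signal minus the array's 75th percentile, from the brightest probe of each gene, and can be compared between samples but not between genes. Differences of means are on the log2 scale and are given ± the standard error from limma, with 3 samples per group unless stated. In these fibroblasts 34 of the 35 members with a probe were well above background on at least 1 array, and 29 were on all 12. The 29 comprised 9 Hoxa, 9 Hoxb, 5 Hoxc and 6 Hoxd genes. Hoxb1, a gene of the hindbrain, was well above background on no array. Hoxa13, which patterns the distal limb, was well above background on 1 of 3 NonIR-WT and 2 of 3 IR-WT arrays and on all 6 ATM-KO arrays. Hoxd3, a gene of anterior vertebrae, was well above background on every array except that of NonIR-KO number 2. Hoxc13, known for its role in hair and nails, was so on 1 array of each group.

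Hoxd12 and Hoxd1, at the opposite ends of the Hoxd cluster, were dim in opposite genotypes. Hoxd12 was well above background on no ATM-WT array and on 4 of 6 ATM-KO arrays, those of numbers 2 and 3. Hoxd1 was so on 2 NonIR-WT arrays and 1 IR-WT array and on no ATM-KO array. Dim arrays were again taken at the lowest signal well above background on them, or at their own signal where that was higher. Hoxd12 was then 1.29-fold higher in NonIR-KO than in NonIR-WT and 1.06-fold higher in IR-KO than in IR-WT. On the same basis Hoxd1 was 1.40-fold lower in NonIR-KO and 1.24-fold lower in IR-KO. These are not strict minima. Hoxd3, for example, read -5.56 in NonIR-KO number 2 without being well above background, where that lowest signal was -5.65. Neither gene was tested, since no group had either gene well above background in all of its 3 samples. Hoxc4, Hoxc6 and Hoxc11 are named only.

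**Figure D1:**
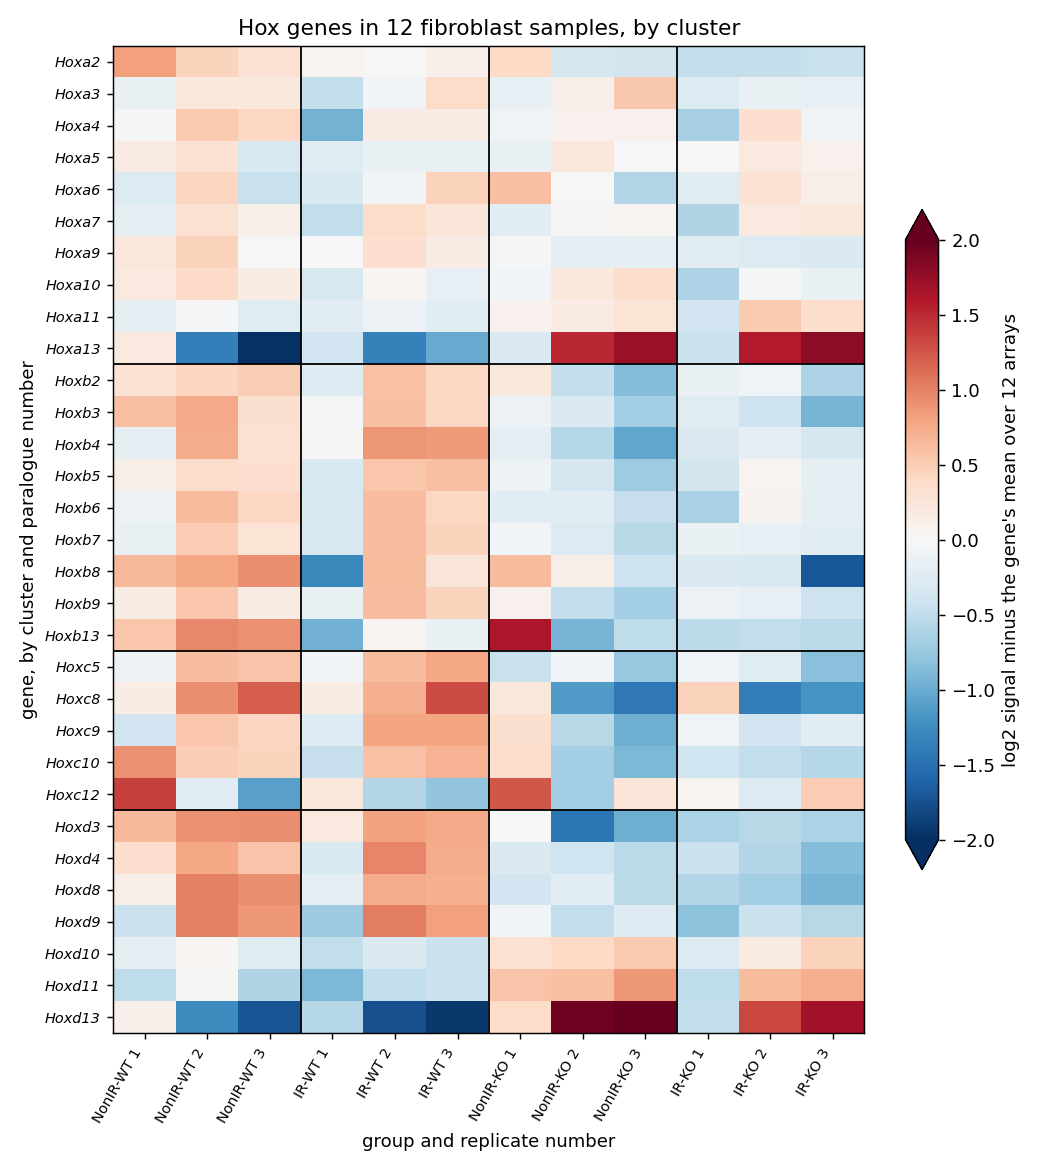
Each row is a Hox gene, ordered by cluster and paralogue number, and each column a sample; colour is the log2 signal minus the gene's mean over the 12 arrays, with values beyond 2 in either direction shown at the end of the scale. ATM-KO numbers 2 and 3 are red at Hoxa13, Hoxd11 and Hoxd13 and blue over most Hoxb and Hoxc genes and Hoxd3 to Hoxd9. ATM-KO number 1 is blue at Hoxa13, and at Hoxd11 and Hoxd13 it is red when nonirradiated and blue when irradiated. Over the other genes ATM-KO number 1 is paler at some and darker at others, such as Hoxd9 in irradiated cells.

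The comparison of NonIR-KO with NonIR-WT asks which Hox genes differ with the Atm genotype in cells that were not irradiated. Of the 31 members tested, 8 had a higher and 23 a lower mean in ATM-KO cells, and their median difference was -0.62, against 0.04 over all 18430 features tested. All 9 Hoxb genes, 4 of 5 Hoxc genes and the 4 tested Hoxd genes from Hoxd3 to Hoxd9 had lower means, with medians of -0.67 for Hoxb and -1.02 for Hoxd3 to Hoxd9. The 3 tested Hoxd genes from Hoxd10 to Hoxd13 had higher means, with a median of 1.04. The 10 Hoxa genes had a median of -0.04, and 6 of them had lower means. For Hoxa3 the probes disagreed: the brighter gave 0.07 ± 0.27 and the dimmer, well above background on 11 arrays, -1.58 ± 0.48. A single member, Hoxd3, passed limma's test with Benjamini-Hochberg adjustment at 0.05 over all features, where 0.857% of features did. At an unadjusted p under 0.05 there were 16 members, where 7.52% of all features lay. They include Hoxa13, which entered the test only through the ATM-KO groups, where it is high. The groups did not overlap for 16 of 31 members, 4 of them higher in ATM-KO, against 13.7% of all features.

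Hoxd3 read -3.46, -3.19 and -3.19 in NonIR-WT numbers 1, 2 and 3 and -4.10, -5.56 and -5.10 in NonIR-KO. All 3 ATM-KO samples lay below all 3 ATM-WT samples, and number 1 of each genotype was the nearest to the other. Hoxd3 fell by 1.64 ± 0.34 on the log2 scale (limma adjusted p = 0.0451). The call was lost with the replicate number as a block, where the difference stayed at -1.64 and the adjusted p was 0.0505. It was also lost with slide as a fixed term (-1.38, adjusted p = 0.462) and with normexp background correction, which gave -0.84. Leaving out 1 array at a time, the call was kept in 3 of 12 fits, with adjusted p from 0.00375 without NonIR-KO number 1 to 0.254 without NonIR-KO number 2. The dimmer probe of Hoxd3, well above background on 1 array, gave -0.59 ± 0.51. RefSeq gene spans of Hoxd3 and Hoxd4 overlap, so the 2 genes' signals may not be fully separate.

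Hoxd4 and Hoxd8 pattern vertebrae and proximal limb, and both separated the genotypes without passing the adjusted test. Hoxd4 read 1.30, 1.73 and 1.53 in NonIR-WT and 0.67, 0.56 and 0.42 in NonIR-KO, a difference of -0.97 ± 0.32 (limma adjusted p = 0.319). Hoxd8 read 0.38, 1.26 and 1.19 in NonIR-WT and -0.12, 0.03 and -0.28 in NonIR-KO, a difference of -1.07 ± 0.31 (adjusted p = 0.228). The ATM-KO samples were below every ATM-WT sample for both genes, and NonIR-WT number 1 was the lowest of its group for both. Hoxd9, which acts in the proximal limb, read -1.47, -0.03 and -0.17 in NonIR-WT and -1.09, -1.53 and -1.31 in NonIR-KO. Its groups overlapped at NonIR-WT number 1, while numbers 2 and 3 lay above every ATM-KO sample.

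At the other end of the cluster, Hoxd13, which patterns the digits, read 1.21, -0.15 and -0.62 in NonIR-WT and 1.48, 3.05 and 3.41 in NonIR-KO. The lowest ATM-KO sample, number 1, was above the highest ATM-WT sample, also number 1, by a small margin, and numbers 2 and 3 were far apart. The difference was 2.50 ± 0.68 (limma adjusted p = 0.174), and its dimmer probe, well above background on all 12 arrays, gave 2.64 ± 0.73. Hoxd11, a gene of the forearm and lower leg, read -3.39, -2.86 and -3.50 in NonIR-WT and -2.31, -2.28 and -2.02 in NonIR-KO, without overlap (1.04 ± 0.33, adjusted p = 0.294), but normexp background correction gave 0.11 ± 0.36. Hoxd10 differed in the same direction, also without overlap (0.54 ± 0.24, adjusted p = 0.621; 0.31 with normexp). The RefSeq spans of Hoxd10 and Hoxd11 overlap. Hoxa13, the Hoxa gene with the same paralogue number as Hoxd13, read -3.96, -5.51 and -6.13 in NonIR-WT, where only number 1 was well above background, and -4.44, -2.64 and -2.42 in NonIR-KO. These groups overlapped at the samples numbered 1. With the dim NonIR-WT arrays taken at the lowest signal well above background, Hoxa13 was 3.12-fold higher in NonIR-KO (limma adjusted p = 0.382). The difference was -0.05 on the log2 scale with normexp background correction, so that fold is not a minimum. Hoxa13 entered the test through the ATM-KO groups, where it is high.

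**Figure D2:**
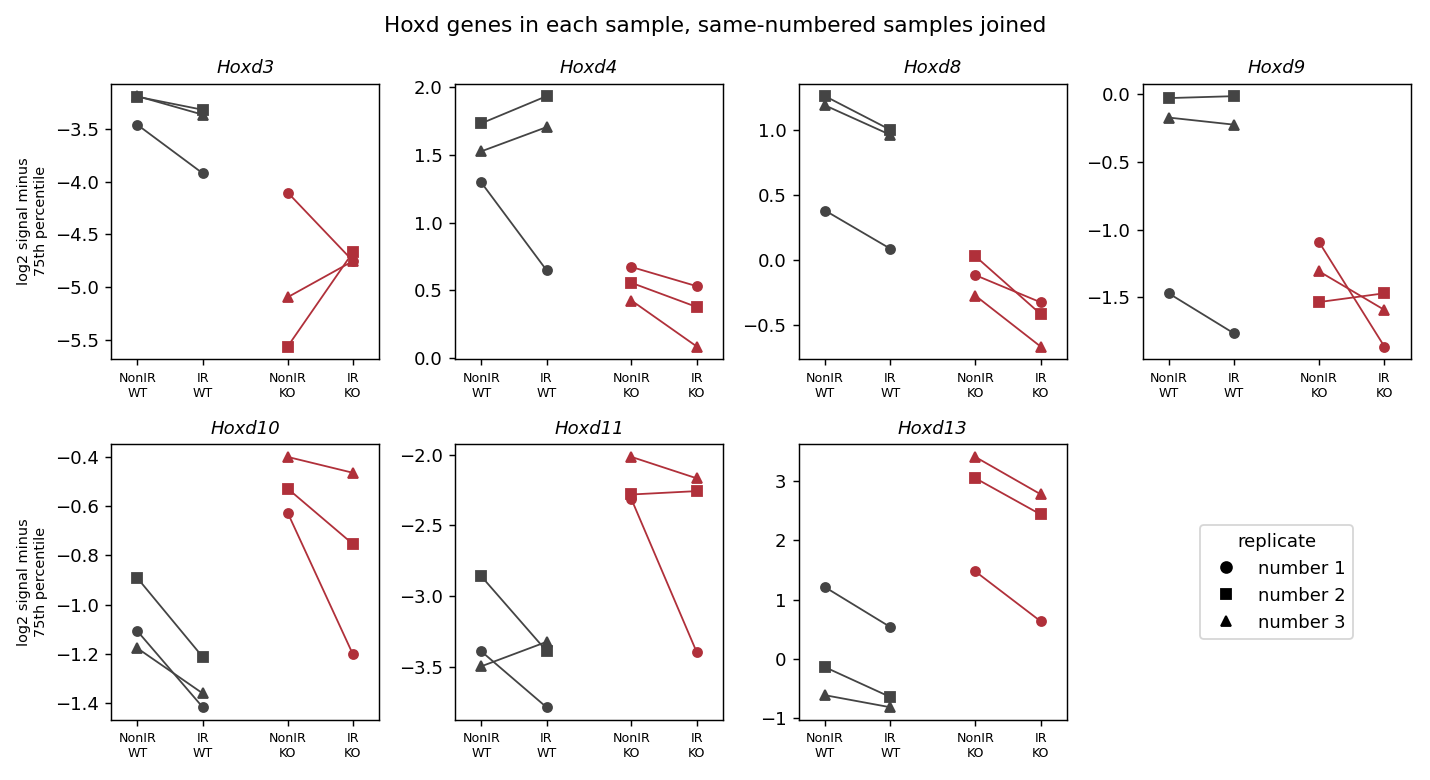
Log2 signal minus the array's 75th percentile of the 7 tested Hoxd genes in each sample, with grey for ATM-WT, red for ATM-KO, a marker for each replicate number and lines joining same-numbered samples; the vertical scales differ between genes. ATM-KO samples lie below ATM-WT samples for Hoxd3 and Hoxd8 and mostly above them for Hoxd10 to Hoxd13, and ATM-WT number 1 lies toward the ATM-KO samples for Hoxd8, Hoxd9 and Hoxd13.

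Outside the Hoxd cluster the largest differences among members well above background on all arrays were those of Hoxc8 and Hoxc10, genes of the trunk and the lumbar region. Hoxc8 read -3.02, -2.25 and -1.96 in NonIR-WT and -2.95, -4.31 and -4.60 in NonIR-KO, a difference of -1.54 ± 0.55 (limma adjusted p = 0.411; -0.96 with normexp). Here number 1 of both genotypes read nearly alike, and numbers 2 and 3 were separated. Hoxc10 read -0.18, -0.61 and -0.65 in NonIR-WT and -0.74, -1.78 and -1.99 in NonIR-KO, without overlap (-1.02 ± 0.37, adjusted p = 0.430). Its dimmer probe gave -0.42 ± 0.52. The Hoxb genes from Hoxb2 to Hoxb9 ran from -0.93 for Hoxb3 to -0.51 for Hoxb7, so that the ends of this cluster did not differ in sign. For Hoxb3, which acts in the hindbrain and neck, the 2 probes disagreed: the brighter gave -0.93 ± 0.28 and the dimmer 0.69 ± 0.38, both well above background on all 12 arrays. The RefSeq spans of Hoxb3 and Hoxb4 overlap.

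Irradiated cells gave a like arrangement in the comparison of IR-KO with IR-WT, which uses other arrays of the same numbered samples. There were 9 members with a higher and 22 with a lower mean in ATM-KO, with a median of -0.45 against -0.01 over all features. Limma called 0 of 31 members, where 0.206% of features were called, and 11 members had an unadjusted p under 0.05, where 5.23% of features did. Hoxa13 is again among these 11. Groups did not overlap for 11 members, 3 of them higher in ATM-KO, against 6.85% of all features. All 9 Hoxb genes had lower ATM-KO means (median -0.53), Hoxd3 to Hoxd9 had a median of -1.13 and Hoxd10 to Hoxd13 one of 0.89.

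Hoxd13 read 0.53, -0.65 and -0.82 in IR-WT and 0.63, 2.44 and 2.78 in IR-KO, a difference of 2.27 ± 0.68 (limma adjusted p = 0.354). As in nonirradiated cells, numbers 1 nearly met and numbers 2 and 3 were far apart. Hoxc8 read -3.02, -2.46 and -1.87 in IR-WT and -2.72, -4.55 and -4.36 in IR-KO (-1.43 ± 0.55, adjusted p = 0.698; -0.47 with normexp), and these groups overlapped. Hoxd3 read -3.92, -3.32 and -3.36 in IR-WT and -4.75, -4.67 and -4.75 in IR-KO (-1.19 ± 0.34, adjusted p = 0.295), but normexp gave -0.13 ± 0.39. Hoxd8 read 0.09, 1.002 and 0.96 in IR-WT and -0.33, -0.42 and -0.67 in IR-KO (-1.16 ± 0.31, adjusted p = 0.257). Hoxd4 read 0.65, 1.94 and 1.71 in IR-WT and 0.53, 0.38 and 0.09 in IR-KO (-1.10 ± 0.32, adjusted p = 0.311). For Hoxd3, Hoxd8 and Hoxd4 no ATM-KO sample reached an ATM-WT sample. Hoxd9 read -1.77, -0.02 and -0.23 in IR-WT and -1.86, -1.47 and -1.59 in IR-KO (-0.97 ± 0.46), overlapping through IR-WT number 1.

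**Figure D3:**
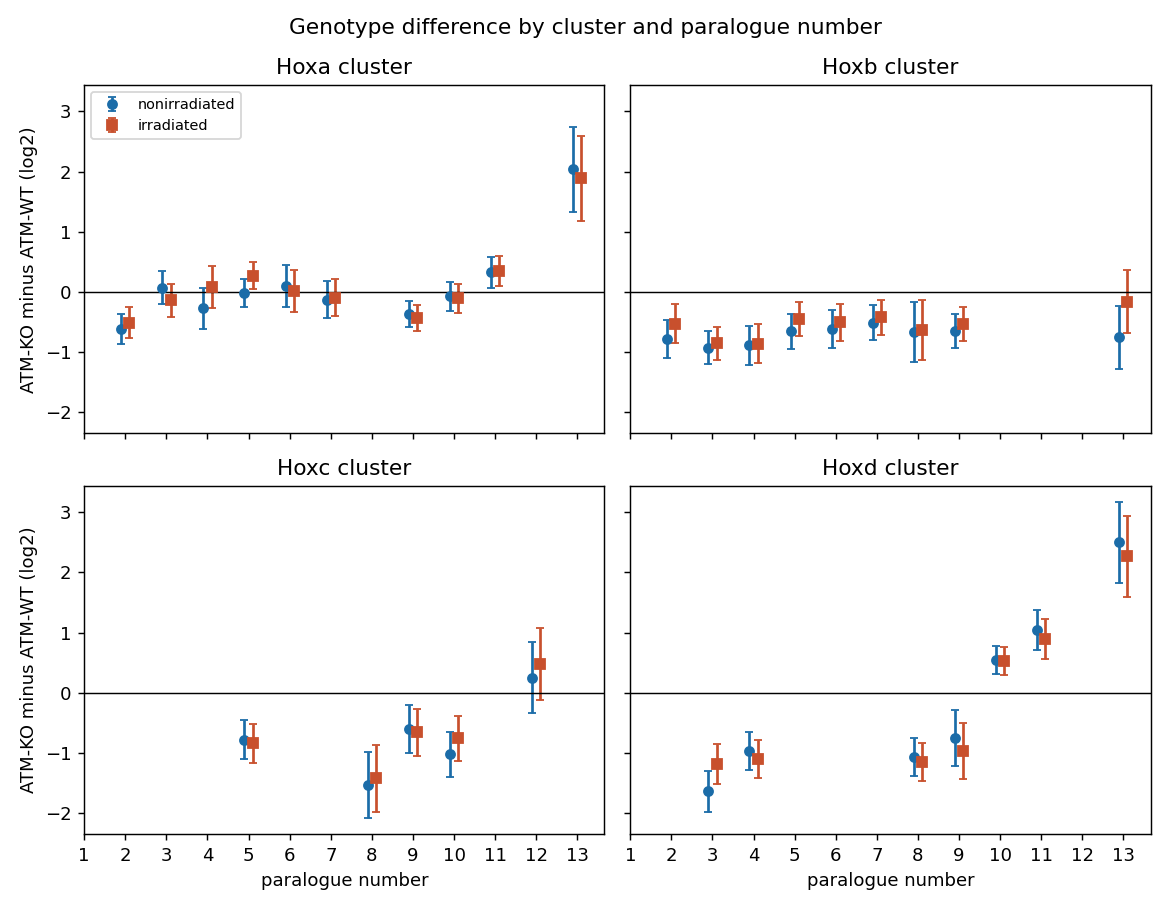
Difference between ATM-KO and ATM-WT means (log2, points) with limma standard errors (bars, n = 3 arrays per group) against paralogue number in each cluster, for nonirradiated (circles) and irradiated (squares) cells. In the Hoxd cluster the points run from -1.64 at Hoxd3 to 2.50 at Hoxd13, while all Hoxb points lie below 0 and those of Hoxa2 to Hoxa11 lie between -0.62 and 0.35.

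Over both treatments, 5 of the 31 members had all 6 ATM-KO samples below all 6 ATM-WT samples, against 1.6% of all features in either direction. They were Hoxa9, Hoxb3, Hoxb4, Hoxd3 and Hoxd8. For Hoxb3 this holds for the brighter probe only. Its dimmer probe ran from -2.02 to -0.56 over ATM-WT and from -1.46 to -0.56 over ATM-KO samples. Nonirradiated and irradiated samples of 1 number deviated together, so these are not treated as 6 independent samples per genotype. Hoxa9, which patterns the trunk, ran from -0.08 to 0.37 over ATM-WT and from -0.37 to -0.12 over ATM-KO samples. For Hoxb4 the ranges were -2.18 to -1.12 and -3.05 to -2.19.

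Without the samples numbered 1, 2 samples per group were left and limma called many more members. These samples stood apart in the same Hox values and were those in which the genotypes lay nearest for genes such as Hoxd13 and Hoxc8. Leaving them out widened such differences, so the calls here and below are not independent of that choice. In nonirradiated cells 15 members were called lower, where 4.41% of features were, and 3 higher, where 4.17% were. The 3 called higher were Hoxd11 (1.03 ± 0.23), Hoxd13 (3.62 ± 0.23) and Hoxa13. Hoxa13 entered the test only through the ATM-KO groups, where it is high, so its calls in this paragraph lend no support. Neither remaining NonIR-WT array had Hoxa13 well above background. On the basis given for Hoxd12 it was 6.52-fold higher in NonIR-KO, which is not a strict minimum. Those called lower included Hoxc8 (-2.34 ± 0.24), Hoxd3 (-2.14 ± 0.18), Hoxb13 (-1.66 ± 0.18), Hoxd8 (-1.35 ± 0.17) and Hoxb4 (-1.32 ± 0.22). In irradiated cells 9 members were called lower, where 2.7% of features were, and the same 3 were called higher, where 2.97% were, with Hoxa13 measured on 1 of the 2 IR-WT arrays left. Of these 12, 11 were also called in nonirradiated cells, the exception being Hoxb3, whose probes disagreed as given above. With these samples left out, ATM-KO lay on slide 3 alone and ATM-WT on slides 1 and 2, so genotype and slide cannot be told apart there. Within slide 2, which holds ATM-WT number 3 and ATM-KO number 1, the difference had the sign of the whole comparison for 27 of 31 members in each treatment, against 68.4% of all features in nonirradiated and 61.0% in irradiated cells. These arrays are part of the whole comparison, so some of that agreement is built in. There Hoxd13 gave 2.10 and 1.46 in nonirradiated and irradiated cells, Hoxd3 -0.91 and -1.39, and Hoxd8 -1.31 and -1.29, each from 1 array per genotype.

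Markers of macrophages and blood cells were also lower in ATM-KO. Of 4 tested macrophage and blood cell markers, all 4 (Adgre1, Csf1r, Lyz2 and Cd14) were called lower in NonIR-KO and 2 (Adgre1 and Lyz2) in IR-KO. The summed level of the 5 with a probe ran from 0.59 to 1.36 in NonIR-WT, 0.24 to 0.92 in IR-WT, -1.24 to -0.99 in NonIR-KO and -1.39 to -0.80 in IR-KO (log2). Of 4 tested endothelial markers, Cdh5 alone was called lower in NonIR-KO and 0 were called in IR-KO by limma, where 1 had an unadjusted p under 0.05, and Pecam1 was well above background on no array. The summed endothelial level ran from -0.85 to -0.63 in NonIR-WT and from -2.46 to -0.93 in NonIR-KO, but the irradiated ranges overlapped, at -0.89 to -0.73 in IR-WT and -1.79 to 0.26 in IR-KO. Of the 12 fibroblast markers limma called 0 in either genotype comparison, with 3 at an unadjusted p under 0.05 in nonirradiated and 1 in irradiated cells. Epithelial, neural and glial, and skeletal muscle lists likewise held 0 called, with 1, 0 and 0 at an unadjusted p under 0.05 in each treatment. Without the samples numbered 1, Pdgfra, Twist2, Tubb3 and Des were called lower in ATM-KO in both treatments and Cdh1 in irradiated cells. With the replicate number as a block, Adgre1, Csf1r, Lyz2, Cd14 and Cdh5 were called lower in both treatments (Cdh5 -2.70 ± 0.40 in irradiated cells, limma adjusted p = 0.0207). Pdgfra was then called lower in nonirradiated cells (-1.17 ± 0.24, adjusted p = 0.0484). That fit called 315 features in nonirradiated and 140 in irradiated cells. In bulk RNA, fewer cells of a type and less RNA per cell cannot be told apart, and the part of these markers in the Hox differences was not tested.

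Irradiation was compared within each genotype to ask whether Hox levels changed 72 h after 4.32 Gy. In ATM-WT cells 8 members had a higher and 23 a lower irradiated mean, with a median of -0.15 against -0.02 over all features. Limma called 0 of 31, where 0.445% of features were called, and 1 member (Hoxb13) had an unadjusted p under 0.05, where 6.46% of features did. With the pair as a block, 0 of 31 were called against 2.26% of features, and 5 had an unadjusted p under 0.05 against 15.4%. Groups did not overlap for 5 members, all lower in irradiated cells (Hoxa2, Hoxa10, Hoxb8, Hoxb13 and Hoxd10), against 10.2% of features. In ATM-KO cells 12 members had a higher and 19 a lower irradiated mean, with a median of -0.08 against -0.05. Limma called 0 of 31, where 0.00543% of features were called, and 0 had an unadjusted p under 0.05, where 7.93% did. With the pair as a block, 0 were called against 2.05% of features, and 3 had an unadjusted p under 0.05 against 20.6%. Groups did not overlap for 3 members, Hoxa2, Hoxa9 and Hoxd8, against 17.1% of features. Without the block the 95% intervals of the members' differences reached 0.46 to 1.54 log2 units to each side. With the block the median standard error of the members was 0.20, against 0.32 without it.

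Among the members with the largest irradiation differences, Hoxb13, a gene of the tail and prostate, read -2.30, -1.89 and -1.94 in NonIR-WT and -3.82, -2.82 and -2.98 in IR-WT (-1.17 ± 0.53, limma adjusted p = 0.761). In ATM-KO cells Hoxb13 read -1.24, -3.79 and -3.37 without and -3.38, -3.36 and -3.38 with irradiation, a difference of -0.57 ± 0.53 in which NonIR-KO number 1 lay far above the other 5 samples. Hoxb8, which acts in the trunk and in blood progenitors, read -2.17, -2.05 and -1.89 in NonIR-WT and -4.11, -2.19 and -2.57 in IR-WT (-0.92 ± 0.50, adjusted p = 0.946). In ATM-KO cells it read -2.19, -2.70 and -3.23 without and -3.12, -3.12 and -4.51 with irradiation (-0.88 ± 0.50, adjusted p = 0.749). Hoxb8 was lower in the irradiated sample of all 6 pairs, with differences from -1.93 to -0.14.

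Hoxd13 differed in the same direction within all 6 pairs and more widely between them. Its irradiated minus nonirradiated values were -0.68, -0.51 and -0.20 in ATM-WT and -0.84, -0.61 and -0.63 in ATM-KO pairs. All 6 were negative, with means of -0.46 ± 0.68 (limma adjusted p = 1) and -0.70 ± 0.68 (adjusted p = 0.875). With the pair as a block the standard error was 0.18 for both, and neither passed (adjusted p = 0.254 and 0.0871). With the group means removed, the root of the mean square of Hoxd13 was 1.38 between pairs and 0.14 within them, a ratio of 10.2. Hoxd8 and Hoxc8 had ratios of 8.21 and 6.84. The median ratio over the 31 members was 1.94, the same to this precision as the median over all features, 1.94.

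Hoxa2, a gene of the second branchial arch, read -0.97, -1.35 and -1.50 in NonIR-WT and -1.73, -1.80 and -1.68 in IR-WT, without overlap (-0.46 ± 0.26, limma adjusted p = 0.948). Hoxa4 read -1.81, -1.26 and -1.37 in NonIR-WT and -2.73, -1.62 and -1.64 in IR-WT (-0.52 ± 0.34, adjusted p = 1), and Hoxc12 read -2.45, -4.02 and -4.89 and then -3.58, -4.40 and -4.59 (-0.41 ± 0.59). Both overlapped between groups, with number 1 furthest from the others for Hoxc12. In ATM-KO cells Hoxa10, which acts in the uterus and the proximal limb, read 1.33, 1.60 and 1.75 without and 0.78, 1.37 and 1.26 with irradiation (-0.43 ± 0.24, adjusted p = 0.740). Hoxa10 lay lower after irradiation in all 6 pairs, with differences from -0.55 to -0.23. Hoxd11 in ATM-KO read -2.31, -2.28 and -2.02 and then -3.40, -2.26 and -2.17 (-0.40 ± 0.33), where number 1 alone differed clearly. Hoxa3 read -3.51, -3.24 and -2.81 and then -3.62, -3.50 and -3.52 (-0.36 ± 0.27), without a clear separation. Its dimmer probe gave 0.52 ± 0.48. The RefSeq span of Hoxa3 overlaps those of Hoxa4, Hoxa5 and Hoxa6.

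In all, 6 members were lower after irradiation in all 6 pairs (Hoxa2, Hoxa10, Hoxb8, Hoxd8, Hoxd10 and Hoxd13), or 19.4% of 31, against 14.3% of all features, and 0 were higher in all 6, against 7.83%. The remaining members lay between -2.14 and 0.98 in single pairs. Hoxb4 was higher in 5 of 6 pairs, by up to 0.71.

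**Figure D4:**
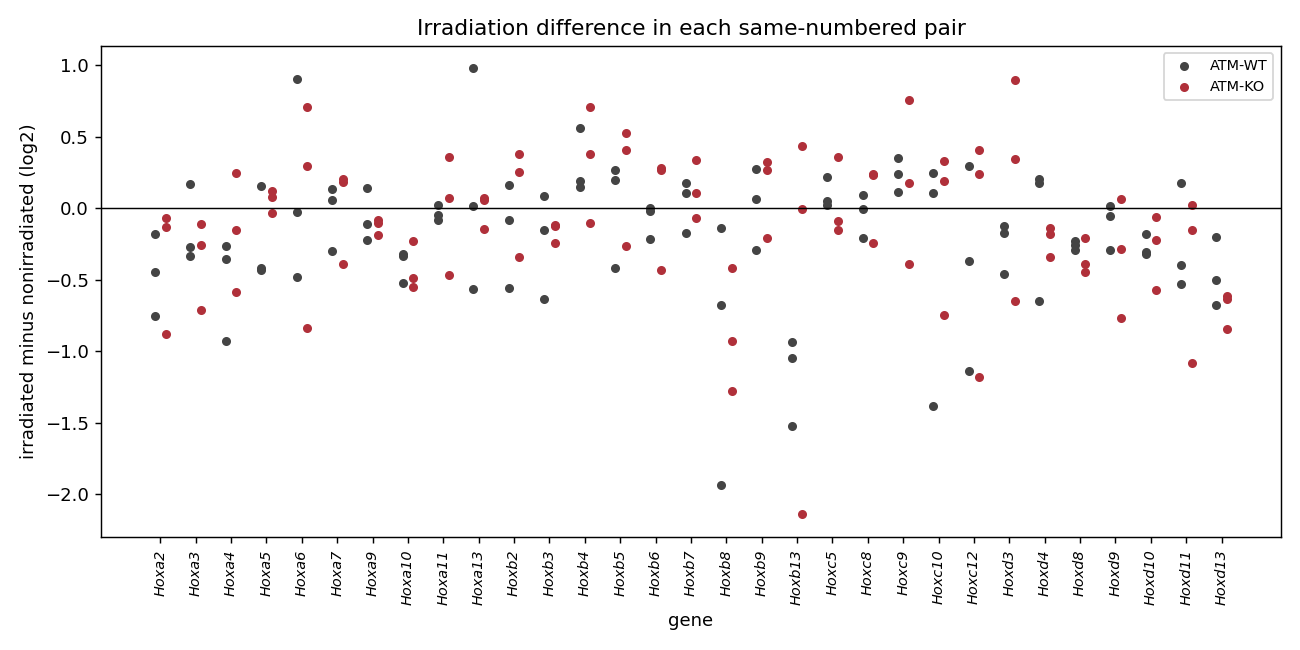
Irradiated minus nonirradiated log2 signal in each same-numbered pair (points; grey for ATM-WT, red for ATM-KO) for the 31 tested Hox genes, by cluster and paralogue number. Hoxa2, Hoxa10, Hoxb8, Hoxd8, Hoxd10 and Hoxd13 lie below 0 in all 6 pairs, and Hoxb13 has the widest spread of the 31, from -2.14 to 0.43.

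The difference between the genotypes' irradiation responses was tested directly, and limma called 0 of 31 members, where 0.00543% of features were called. Unadjusted, 0 members had p under 0.05, where 0.901% of features did. All 9 Hoxb genes had positive values, from 0.03 for Hoxb4 to 0.59 ± 0.75 for Hoxb13, and the members' median was 0.03 against -0.06 over all features. Hoxb2, a hindbrain gene, gave 0.26 ± 0.45 from irradiation values of -0.16 in ATM-WT and 0.10 in ATM-KO. Hoxa5, which acts in the lung and neck, gave 0.29 ± 0.32, from -0.23 and 0.06, Hoxa4 gave 0.35 ± 0.49, Hoxc10 gave 0.27 ± 0.53 and Hoxd13 gave -0.23 ± 0.96. Each of these standard errors was larger than its value.

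Hox proteins bind DNA with TALE cofactors, and of 9 such genes tested limma called 0 in any of the 5 comparisons. In NonIR-KO against NonIR-WT, 2 of the 9 had an unadjusted p under 0.05, where 7.52% of all features did. Meis1 (-0.88 ± 0.38, adjusted p = 0.610) and Meis2 (-0.83 ± 0.29, adjusted p = 0.404) showed the largest differences. Meis1 read -0.07, -0.71 and -0.70 in NonIR-WT and -0.80, -1.64 and -1.67 in NonIR-KO. Both Meis genes were called lower in ATM-KO in each treatment without the samples numbered 1, where 4.41% of features in nonirradiated and 2.7% in irradiated cells were. Polycomb genes, which keep Hox clusters silent, and trithorax and H3K27 demethylase genes, which keep them active, held 0 called of 21 and of 13 tested in all 5 comparisons. Between 0 and 2 Polycomb genes and 0 and 1 of the others had an unadjusted p under 0.05 in a comparison, and none did in the genotype comparisons. Among them Cbx2 (-0.78 ± 0.24, adjusted p = 0.370) and Phf19 (-0.73 ± 0.26) had the largest irradiation differences in ATM-KO cells and Mllt3 (0.83 ± 0.50) the largest genotype difference in irradiated cells.

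Retinoic acid sets Hox expression along the body axis, and of 17 genes of its pathway limma called 0 in the 5 comparisons, with 0 to 3 at an unadjusted p under 0.05. The largest genotype differences were those of Cyp26a1 (1.36 ± 0.39, adjusted p = 0.211) in nonirradiated and Rarb (1.55 ± 0.70, adjusted p = 0.913) in irradiated cells. Cyp26b1, which breaks retinoic acid down in the distal limb, read 1.34, 2.17 and 1.66 in NonIR-WT and 1.82, 3.59 and 3.17 in NonIR-KO. Without the samples numbered 1, 3 of the 17 were called higher and 2 lower in NonIR-KO, where 4.17% and 4.41% of all features were. The 7 tested axial regulators upstream of Hox genes held 0 called by limma in the 5 comparisons, with 0 at an unadjusted p under 0.05. The 8 genes reported as Hox targets also held 0 called, with 0 to 3 at an unadjusted p under 0.05, and of these Six2 had the largest difference (1.94 ± 0.60 in nonirradiated cells, adjusted p = 0.267).

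Of 16 tested genes beside the clusters limma called 0, with 0 to 3 at an unadjusted p under 0.05, and their median difference in nonirradiated cells was -0.04. Chn1 (0.82 ± 0.34) and Mtx2 (-0.65 ± 0.27) had the largest differences there. Evx2, the neighbour of Hoxd13, and Mtx2, on the Hoxd1 side of that cluster, were both called lower in ATM-KO without the samples numbered 1 (-0.89 ± 0.17 and -0.86 ± 0.13 in nonirradiated cells), so Evx2 and Hoxd13 had opposite signs. Among 31 other positional homeobox and T-box genes, Pitx1, which specifies the hindlimb, was the single one called, and was higher in NonIR-KO. Pitx1 read 1.57, 1.29 and 1.35 in NonIR-WT and 2.76, 3.29 and 3.51 in NonIR-KO (1.78 ± 0.37, limma adjusted p = 0.0480), without overlap. Of the 31, 14 had an unadjusted p under 0.05 in that comparison, where 7.52% of all features did. In irradiated cells 0 of the 31, Pitx1 included, were called, and 16 had an unadjusted p under 0.05, where 5.23% of features did. Without the samples numbered 1, 10 were called higher and 3 lower in each treatment. Of all features 4.17% were called higher and 4.41% lower in nonirradiated cells, and 2.97% and 2.7% in irradiated cells. The higher ones of the list included Msx1, Lhx2, Lhx9, Tbx4 and Alx1, and the lower ones were Emx2, En1 and Shox2.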

How the data were processed

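Scanner files of 12 arrays were used, with groups and replicate numbers from the sample labels. Per the file headers, the deposited intensity values came from Feature Extraction 10.7.1.1 on build mm9, while the submitters' processing notes name version 11.0. The deposited files hold no mean spot signal column, so normexp used the median. Other deposited values were spot flags and the authors' table of log2 values, scaled by the 75th percentile and centred by probe, which served as an alternative. Processed signal was log2-transformed minus each array's 75th percentile, outlier spots were dropped, spots averaged, and genes represented by their brightest probe. Of 41174 probes, 25097 were named by accession. Features well above background on all 3 arrays of a group (18430) were fitted with limma 3.58.1 in R 4.3.3 (group means, 8 residual and 4.13 prior degrees of freedom, threshold 0.05). Scripts were tested on simulated data.

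The members, lists and the rule for named genes were chosen with earlier results of these data known. The rule names members called, or else the 6 with the largest differences among those well above background in both groups, and for lists the largest differences or smallest adjusted p. Members outside that rule, such as Hoxa9, Hoxa13 and Hoxb3, were named after their values were seen. Deviations from group means of same-numbered samples correlated at 0.481 to 0.852 for irradiation in ATM-WT and 0.269 to 0.510 in ATM-KO. For genotype in irradiated cells they correlated at 0.218 to 0.629. NonIR-KO number 2 correlated at 0.335 with IR-KO number 3, above its 0.269 with IR-KO number 2. The labels do not say what the numbers share. The number of arrays limits the precision. Alternatives covered background correction, scaling, filter, probe choice, samples fitted, pairs, slide and samples left out.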

Additional observations from a re-analysis of the deposited data

How the results depend on the processing

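In the irradiation comparisons and their difference, 0 Hox members were called under every alternative run. For NonIR-KO minus NonIR-WT, the 1 call (Hoxd3) was kept with quantile normalization and the authors' deposited table, and 0 members were called with normexp, median scaling, no filter on dim probes, only features well above background on all 12 arrays (which leaves Hoxd3 out), the mean over probes, only the groups compared, an intensity trend, and slide as a fixed or random block. A replicate block, by replicate number for genotype and by pair for irradiation, gave 0 there and changed no other count of members. Same-numbered samples did not deviate together in the nonirradiated genotype comparison (correlations of -1e-04, 0.179 and -0.217). Leaving out 1 array at a time gave 0 to 1 called. Without the samples numbered 1 there were 18 members called in nonirradiated and 12 in irradiated cells, against 1580 and 1044 of all 18430 features. Both counts include Hoxa13. With a replicate block as well, an alternative chosen after seeing the data, there were 18 and 15, against 1909 and 1240 features. The causes were not tested. The genotype difference kept its sign under all alternative fits for 24 of 31 members in nonirradiated cells, the exceptions being Hoxa3, Hoxa5, Hoxa6, Hoxa7, Hoxa10, Hoxa13 and Hoxc12, and for 25 in irradiated cells, the exceptions being Hoxa3, Hoxa4, Hoxa6, Hoxa7, Hoxa10 and Hoxb13. Normexp moved the median of all features by -0.15 for the nonirradiated genotype comparison, -0.12 for irradiation in ATM-WT and 0.20 for the difference of responses. Well above background, 29 to 34 members were counted by the rule used. Signal over background limits Hoxb1, Hoxc13, Hoxd1 and Hoxd12, and Hoxa13 and Hoxd3 in part.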
